A study of Mus musculus with 9 samples.

Results

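Wnk1, Oxsr1 and Stk39 are 3 of the 22071 genes that the array's platform annotation names. They encode the protein kinase WNK1 and the kinases OSR1 and SPAK, which WNK1 phosphorylates and switches on. A probe set, the array's unit of measurement within a stretch of a transcript, was assigned to a member when its annotation gave exactly 1 symbol, the member's own or an older name of it. By this rule Wnk1 had 65 probe sets, 3 of them listed under the older symbol Hsn2, Oxsr1 had 22 and Stk39 had 21. Wnk1 was chosen by measured values of these arrays, as some of its probe sets read higher after Mbnl1 siRNA only, and Oxsr1 and Stk39 were added as its substrates. For this reason all values of Wnk1 in these contrasts are given as a description, with no test.

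WNK kinases sense chloride and cell volume. Active WNK1 phosphorylates OSR1 and SPAK, which bind the scaffold MO25 and then phosphorylate the cation-chloride cotransporters, switching on the sodium-potassium-chloride carrier NKCC1 that loads cells with chloride and switching off the potassium-chloride carriers that unload it. The Wnk1 gene makes many mRNA forms through alternative promoters and alternative exons, including a kidney form without most of the kinase domain and forms with the HSN2 exon of the nervous system. MBNL1 and CUGBP1 (gene Celf1) are RNA-binding proteins that steer alternative splicing and mRNA decay, and their imbalance is a known feature of myotonic dystrophy.

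All 9 samples were total RNA of C2C12 cells, an established mouse myoblast line grown in serum-containing medium. The cells of each group of 3 arrays had received 1 kind of siRNA, either a control, one targeting Cugbp1 or one targeting Mbnl1, with RNA taken 48 h later and 100 ng of it used per array. The labels do not give the siRNA sequences or say whether the replicates were separate cultures. The p-values therefore reflect the variation among the arrays alone, and that variation may be technical. Values are log2 intensities, and a probe set was kept when its mean over the 9 arrays was at least 6.997, which is the 75th percentile of the table. The exon array has no read depth, and its precision is limited by the 3 arrays in each group.

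Both knockdowns were visible in their targets. The gene value of Celf1 was 1.46 lower on the log2 scale after Cugbp1 siRNA (a difference of -1.46), and that of Mbnl1 was 1.35 lower after Mbnl1 siRNA (-1.35). The first principal component held 54.2% of the variance and put the 3 control arrays, at -16.7 to -14.5, apart from all 6 siRNA arrays, at 2.16 to 11.2. Of the myoblast markers, 7 of 8 had a median probe set above the filter. Among markers of differentiated muscle, 3 of 6 (Ckm, Acta1 and Tnnt3) did. Of 10 markers of blood, vessel, epithelial, glial and fat cells, 1 (the keratin gene Krt14) did. The summed linear level of those 10 markers was 668 to 771 on the control arrays, 574 to 627 on the Cugbp1 siRNA arrays and 636 to 698 on the Mbnl1 siRNA arrays, and its part in the results was not tested. Of these markers 7 could be tested as genes. At a limma adjusted p under 0.05, 5 were lower after Cugbp1 siRNA and 4 after Mbnl1 siRNA, and 0 were higher after either. Of all genes, 12.7% and 14.6% were called lower in these comparisons. Each siRNA group was compared with the same 3 control arrays, so the 2 comparisons against control share them.

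Wnk1 as a whole gene read slightly higher after Mbnl1 siRNA and not after Cugbp1 siRNA. Its gene value, a median polish over the 62 kept probe sets, was 11.33, 11.28 and 11.29 on the control arrays, 11.20, 11.28 and 11.35 on the Cugbp1 siRNA arrays, and 11.44, 11.45 and 11.47 on the Mbnl1 siRNA arrays. All 3 Mbnl1 siRNA arrays lay above all 6 others, while the Cugbp1 siRNA arrays ran from below to above the controls. The means were 11.30 ± 0.03 (SD, n = 3) for control, 11.28 ± 0.07 for Cugbp1 siRNA and 11.45 ± 0.02 for Mbnl1 siRNA. The difference from control was 0.15 on the log2 scale after Mbnl1 siRNA (a 1.11-fold difference) and -0.023 after Cugbp1 siRNA, and the latter sign turned when each array was centred on its median probe set (0.022). Among all 12646 genes with a gene value, 37.3% had every Mbnl1 siRNA array above every control array, and nothing about Wnk1 is read from that share, since the contrast chose it. The size depended on the scaling: the Mbnl1 siRNA difference was 0.078 with arrays centred on the median gene and 0.27 with the mean of the probe sets in place of the median polish. In RNA of a whole culture, fewer cells expressing a gene and less RNA per cell cannot be told apart.

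**Figure D1:**
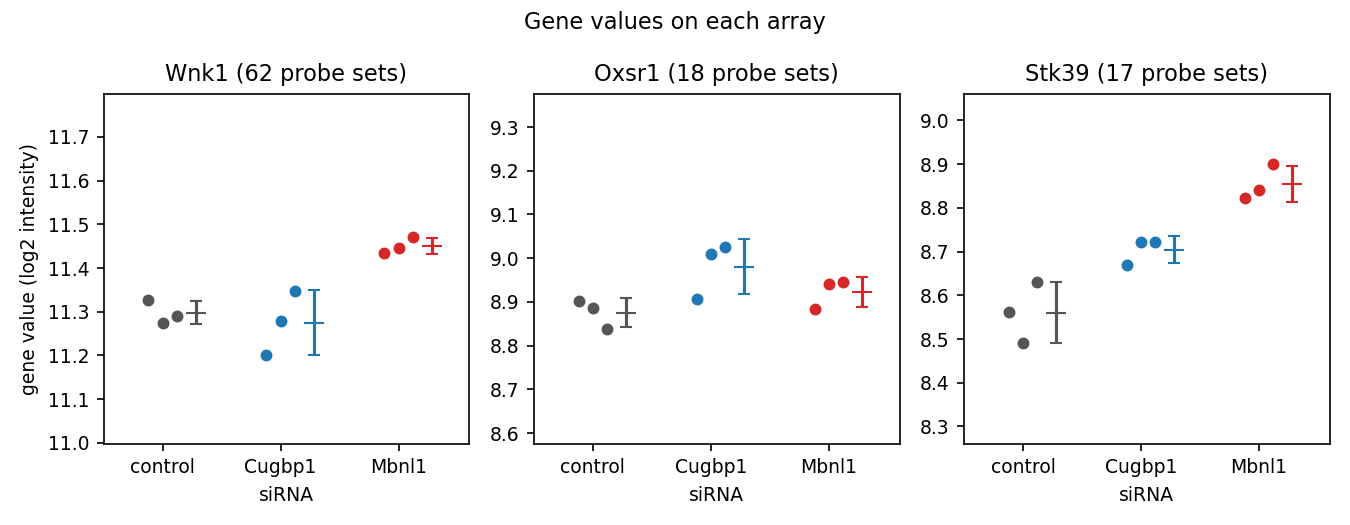
Gene values (log2 intensity) of Wnk1, Oxsr1 and Stk39 on each of the 9 arrays, by siRNA group, with each group's mean and SD beside the points (n = 3). Each panel has its own vertical range of equal length. Wnk1 is highest on the 3 Mbnl1 siRNA arrays, Oxsr1 overlaps between the siRNA groups, and Stk39 steps up from control to Cugbp1 siRNA to Mbnl1 siRNA without overlap.

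Within Wnk1, 4 of the 62 kept probe sets read 1.85 to 2.13 times their control level after Mbnl1 siRNA and 0.892 to 1.18 times after Cugbp1 siRNA. A probe set's use is its log2 value minus the gene value on the same array, so that a change of the whole gene drops out. A probe set was counted as raised when its mean use was at least 0.5 higher after Mbnl1 siRNA than in control. By this measure 7 Wnk1 probe sets were raised, 4 of them after Mbnl1 siRNA only and 3 after both siRNAs. With these 7 left out, the gene-level difference after Mbnl1 siRNA was 0.13, beside 0.15 with all 62 kept probe sets. A use at least 0.5 higher after Mbnl1 siRNA and under 0.5 after Cugbp1 siRNA, as in those 4, was found in 1.99% of all probe sets, and nothing is read from that share for Wnk1. Which exon or transcript end each probe set covers was not analysed here, so they are given by their identifiers.

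Probe set 4721679 read 9.16, 9.07 and 9.10 on the control arrays, 8.95, 8.84 and 9.06 on the Cugbp1 siRNA arrays, and 10.25, 10.13 and 10.22 on the Mbnl1 siRNA arrays. Its values after Cugbp1 siRNA were all below the lowest control and its values after Mbnl1 siRNA were all above the highest. The Mbnl1 siRNA mean was 2.13 times the control mean, and in use the difference from control was 0.94 (SE 0.12) after Mbnl1 siRNA against -0.14 (SE 0.12) after Cugbp1 siRNA.

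A near match came from probe set 5332694, with 9.11, 9.22 and 9.14 in control, 9.08, 9.03 and 9.20 after Cugbp1 siRNA, and 10.28, 10.18 and 10.20 after Mbnl1 siRNA. Here control and Cugbp1 siRNA arrays overlapped, and the Mbnl1 siRNA arrays stood clear of both. The mean ratio to control was 2.09, and the use differed from control by 0.91 (SE 0.12) after Mbnl1 siRNA and by -0.03 after Cugbp1 siRNA.

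The brightest of the 4, probe set 4390830, read 9.56, 9.60 and 9.62 in control, 9.70, 9.49 and 9.60 after Cugbp1 siRNA, and 10.55, 10.51 and 10.52 after Mbnl1 siRNA. Its 3 Mbnl1 siRNA values spanned less than those of either other group and lay above all of them. The ratio to control was 1.91, with a use difference of 0.78 (SE 0.12) after Mbnl1 siRNA and 0.02 after Cugbp1 siRNA.

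Probe set 5214076 was the least separated of the 4, at 8.22, 8.42 and 8.47 in control, 8.75, 8.25 and 8.82 after Cugbp1 siRNA, and 9.28, 9.25 and 9.24 after Mbnl1 siRNA. On 2 of the 3 Cugbp1 siRNA arrays it exceeded every control, and on the other it was near the lowest control. Its ratio to control after Mbnl1 siRNA was 1.85, and its use differed from control by 0.73 (SE 0.16) after Mbnl1 siRNA and 0.26 (SE 0.16) after Cugbp1 siRNA.

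Averaged over these 4 probe sets, Wnk1 use was -2.24 ± 0.07 (SD, n = 3) in control, -2.21 ± 0.15 after Cugbp1 siRNA and -1.40 ± 0.05 after Mbnl1 siRNA. In each of the 4, the lowest Mbnl1 siRNA array had a higher use than the highest of the 6 other arrays. The same pattern, a use at least 0.5 higher after Mbnl1 siRNA, under 0.5 after Cugbp1 siRNA and with all Mbnl1 siRNA arrays above the other 6, was met by 1073 of 158713 probe sets (0.676%). It occurred at least once in 951 of 11374 genes (8.36%) and at least 4 times in 7 (0.0615%). Wnk1 is one of those 7 by the way it was picked, and no support is taken from the count. Oxsr1 and Stk39 had no probe set with it.

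**Figure D2:**
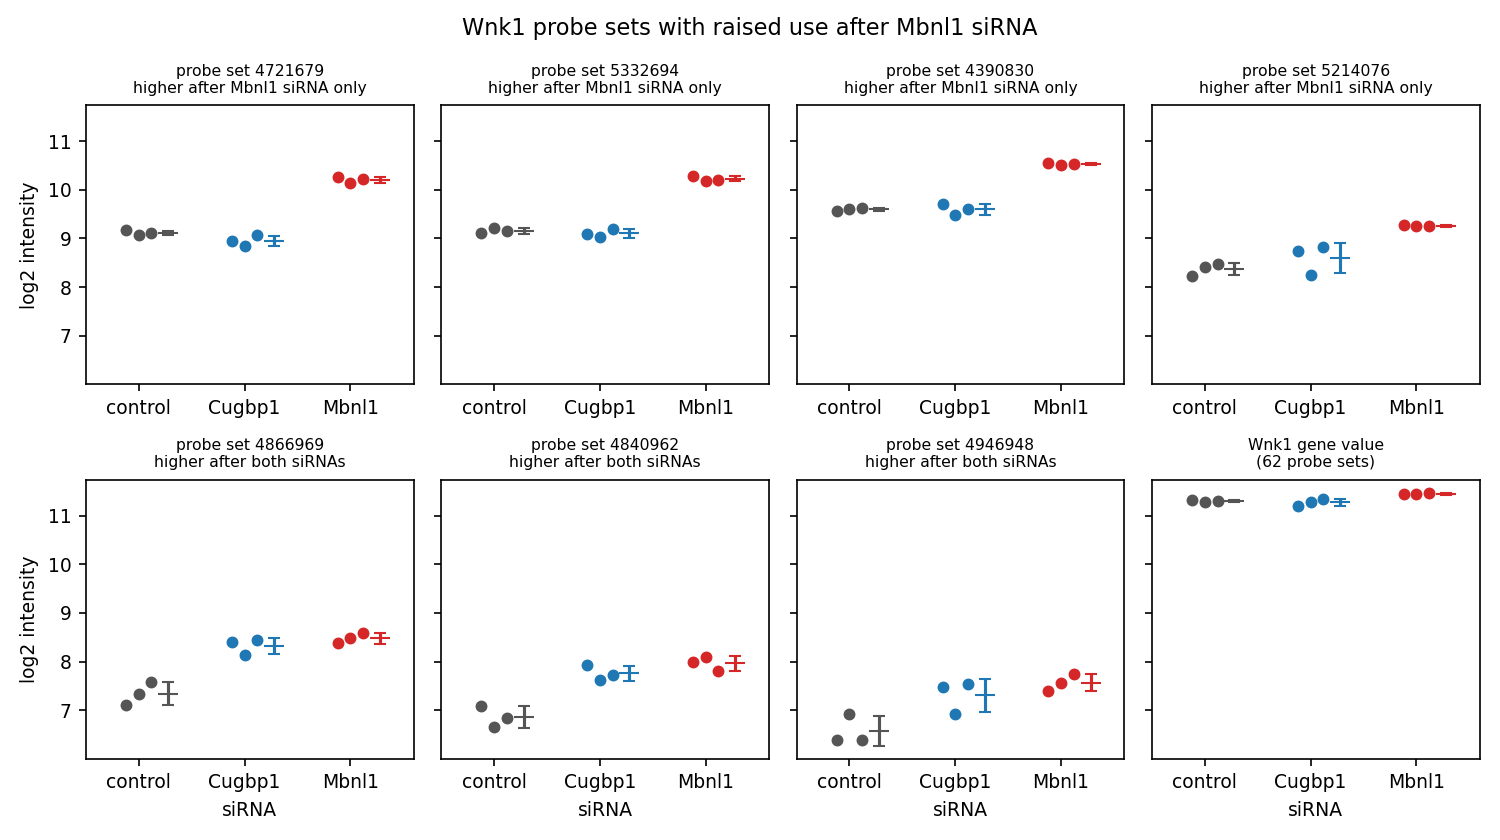
Log2 intensity on each array of the 7 Wnk1 probe sets whose use was at least 0.5 higher after Mbnl1 siRNA, with the Wnk1 gene value in the last panel on the same axis. Points are arrays and the bars beside them the group mean and SD (n = 3). In the upper row the Mbnl1 siRNA arrays stand alone. In the 3 probe set panels of the lower row both siRNA groups sit above or at the upper edge of the controls. For the gene value in the last panel the Cugbp1 siRNA arrays run from below to above the controls.

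The 3 Wnk1 probe sets raised after both siRNAs were dimmer in control, with control means of 6.57 to 7.34 against a filter of 6.997, where those of the other 4 were 8.37 to 9.60. The control means of 4840962 and 4946948 were below the filter, so these were kept only through the siRNA arrays, where they read higher. Probe set 4866969 read 7.11, 7.33 and 7.59 in control, 8.40, 8.13 and 8.44 after Cugbp1 siRNA, and 8.37, 8.48 and 8.59 after Mbnl1 siRNA. Probe set 4840962 read 7.10, 6.65 and 6.84 in control, 7.92, 7.63 and 7.73 after Cugbp1 siRNA, and 7.998, 8.085 and 7.802 after Mbnl1 siRNA. In both of these every siRNA array was above every control array, and the siRNA groups overlapped each other. The third, probe set 4946948, read 6.39, 6.92 and 6.40 in control, 7.47, 6.92 and 7.54 after Cugbp1 siRNA, and 7.40, 7.56 and 7.74 after Mbnl1 siRNA, with 1 Cugbp1 siRNA array level with the highest control. The use differences from control were 1.00 and 0.99 (after Cugbp1 and Mbnl1 siRNA) for 4866969, 0.92 and 0.95 for 4840962, and 0.76 and 0.84 for 4946948. A use at least 0.5 higher after both siRNAs was found in 1.56% of all probe sets, and a use at least 0.5 higher after Mbnl1 siRNA in 3.55%.

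Most of Wnk1 moved little in use. The other 55 kept probe sets ranged from -0.49 to 0.49 after Mbnl1 siRNA and from -0.33 to 0.47 after Cugbp1 siRNA, and 46 of them stayed within 0.25 of control after both. Just inside the threshold of 0.5 was probe set 5214076, at 0.73, and just outside were 4744586, at 0.49, and 5218333, at 0.48. Both of the latter were also higher after Cugbp1 siRNA, by 0.44 and 0.47. The lowest were probe set 5002935, with a use of -0.49 after Mbnl1 siRNA and -0.19 after Cugbp1 siRNA, and 4336598, with -0.24 and -0.15.

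In log2 intensity itself, 58 of the 62 kept probe sets had a higher mean after Mbnl1 siRNA than in control, and for 31 all 3 arrays were above all controls, against 30.2% of probe sets of all genes tested. After Cugbp1 siRNA the corresponding numbers were 32 and 7, against 24.7%. For the 58 and the 32 no share over all probe sets was computed. Nothing about Wnk1 is read from these counts, since the contrast chose it and its probe sets share the difference of the whole gene. In 4 Wnk1 probe sets the use was pushed to opposite sides, with all Cugbp1 siRNA arrays below and all Mbnl1 siRNA arrays above the controls, as in 105 of all 158713 probe sets (0.0662%). Beside 4721679 these were 4596553 (-0.33 after Cugbp1 and 0.23 after Mbnl1 siRNA), 5412137 (-0.18 and 0.17) and 5040728 (-0.22 and 0.15), and they were singled out after their values were seen. Across the kept Wnk1 probe sets, 8 had a use higher on all Mbnl1 siRNA than on all Cugbp1 siRNA arrays and 7 a lower one. Among all probe sets, 6.88% were higher in this way and 13.8% did not overlap in either direction.

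The HSN2 exon of Wnk1, included mainly in nervous tissue, gave its name to the older symbol under which 3 Wnk1 probe sets are listed. Of these, 5218203 and 5232734 were kept and differed from control in use by 0.20 and 0.24 after Cugbp1 siRNA and by 0.15 and 0.02 after Mbnl1 siRNA. The other, 5558142, was below the filter along with 4361430 and 4378570, with means of 6.51 to 6.68 over all arrays. All 3 of these dim probe sets read higher in intensity on every Mbnl1 siRNA array than on any control array, by 1.04 for 5558142, 0.81 for 4361430 and 1.68 for 4378570. Probe set 4378570 was the furthest apart, at 6.06, 5.31 and 5.71 in control, 6.42, 6.44 and 6.55 after Cugbp1 siRNA, and 7.35, 7.25 and 7.52 after Mbnl1 siRNA, with no overlap between any groups. Signals this low were left out of the gene value and of use, so these intensity differences include that of the whole gene. No share over all probe sets below the filter was computed, and nothing is read from the separation of these 3.

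**Figure D3:**
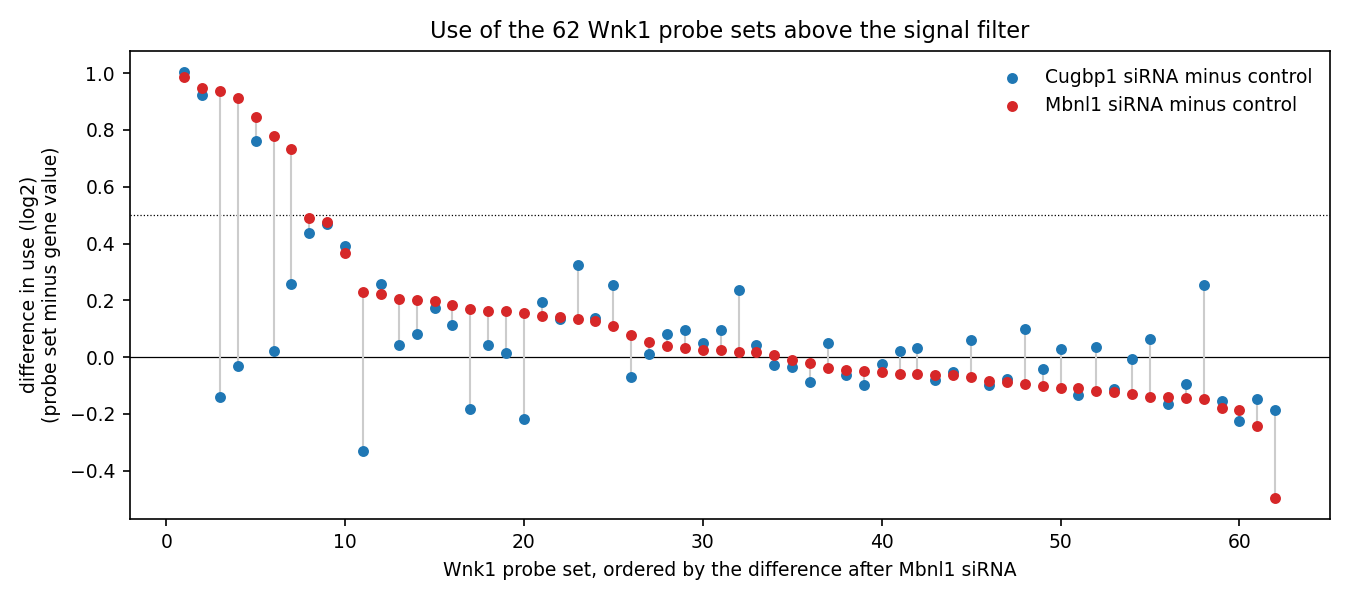
Difference in use from control (log2, probe set minus gene value) of the 62 kept Wnk1 probe sets, ordered by the difference after Mbnl1 siRNA. Red points are Mbnl1 siRNA and blue points Cugbp1 siRNA, a grey line joins the points of a probe set, and the dotted line marks 0.5. Of the 7 red points above the line, 3 have a blue point near them and 4 have one at -0.14 to 0.26.

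Oxsr1, which encodes OSR1, one of the WNK1 substrate kinases, showed no called difference. Its gene value over 18 kept probe sets was 8.90, 8.89 and 8.84 in control, 8.91, 9.01 and 9.02 after Cugbp1 siRNA, and 8.88, 8.94 and 8.95 after Mbnl1 siRNA. The Cugbp1 siRNA arrays were all above the controls, 1 of them only just, and the Mbnl1 siRNA arrays overlapped both other groups. The difference from control was 0.11 after Cugbp1 siRNA (95% interval 0.00 to 0.21, limma adjusted p = 0.0926) and 0.05 after Mbnl1 siRNA (-0.05 to 0.15, adjusted p = 0.423). The siRNA groups differed by 0.06 (-0.04 to 0.16, adjusted p = 0.499). Of all genes tested, 38.7% were called after Cugbp1 siRNA, 41.5% after Mbnl1 siRNA and 9.34% between the siRNAs. The Cugbp1 siRNA call of Oxsr1 turned on the settings: it passed with arrays centred on their median probe set (0.15, adjusted p = 0.0295), with the mean in place of the median polish (0.17, adjusted p = 0.0323) and without Cugbp1 siRNA replicate 1 (0.14, adjusted p = 0.0241). Centring on the median gene turned the sign of the Mbnl1 siRNA difference (-0.027).

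No Oxsr1 probe set was called for exon use by limma in any comparison. Without adjustment, 1 of the 18 had a p under 0.05 after Cugbp1 siRNA, 5 after Mbnl1 siRNA and 1 between the siRNAs, where 20.8%, 24.7% and 6.63% of all probe sets did. The diffSplice test of limma called 2 after Mbnl1 siRNA, beside 10.8% of all probe sets. It called none after Cugbp1 siRNA (7.38% of all probe sets) or between the siRNAs (0.349%). The largest differences were those of probe set 4469429, at 0.63 after Mbnl1 siRNA (95% interval 0.11 to 1.16, limma adjusted p = 0.133), and 5517478, at 0.50 (0.06 to 0.93, adjusted p = 0.150). Use of 4469429 was 0.13, -0.76 and -0.12 in control, -0.41, 0.11 and 0.42 after Cugbp1 siRNA, and 0.36, 0.14 and 0.65 after Mbnl1 siRNA. The control arrays of this probe set were spread over a wider range than the difference itself.

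Stk39, which encodes SPAK, was higher after both siRNAs, and by more after Mbnl1 siRNA. Its gene value over 17 kept probe sets was 8.56, 8.49 and 8.63 in control, 8.67, 8.72 and 8.72 after Cugbp1 siRNA, and 8.82, 8.84 and 8.90 after Mbnl1 siRNA. The 3 groups followed each other without overlap, as 48.8% of genes did between Cugbp1 siRNA and control, 57.5% between Mbnl1 siRNA and control and 29.5% between the siRNAs. After Mbnl1 siRNA Stk39 rose by 0.29 (SE 0.05, 95% interval 0.19 to 0.40, limma adjusted p = 0.00113), a 1.23-fold change. It also rose after Cugbp1 siRNA, by 0.14 (SE 0.05, 0.04 to 0.25, adjusted p = 0.0362), a 1.11-fold change. Genes called higher made up 26.9% and 26.0% of all genes in these comparisons. The siRNA groups themselves differed by -0.15 (Cugbp1 minus Mbnl1 siRNA, -0.26 to -0.04, adjusted p = 0.0799), which missed the threshold.

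The Mbnl1 siRNA call of Stk39 held in all 18 alternatives, with differences of 0.22 to 0.33. That after Cugbp1 siRNA was lost in 10 of 18, among them a repeated quantile normalisation (0.11, adjusted p = 0.0971), centring on the median gene (0.063, adjusted p = 0.293) and leaving out control replicate 2 (0.11, adjusted p = 0.113). It was also lost without control replicate 1 (adjusted p = 0.0796), Cugbp1 siRNA replicate 2 (0.0961) or 3 (0.0949) and Mbnl1 siRNA replicate 2 (0.0504).

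In exon use, 2 of the 17 kept Stk39 probe sets were called after Mbnl1 siRNA (6.98% of all probe sets were), and no probe set after Cugbp1 siRNA (3.75%) or between the siRNAs (0.0277%). Without adjustment, 5 had a limma p under 0.05 after Mbnl1 siRNA, 2 after Cugbp1 siRNA and 0 between the siRNAs. Of all probe sets, 24.7%, 20.8% and 6.63% did. By diffSplice 0 were called in each comparison, beside 10.8%, 7.38% and 0.349% of all probe sets. Probe set 5187294 read 9.49, 9.35 and 9.41 in control, 9.68, 9.83 and 9.89 after Cugbp1 siRNA, and 9.90, 10.06 and 10.16 after Mbnl1 siRNA, so the groups were in the same order as for the gene value. Its use was 0.33 higher after Mbnl1 siRNA (SE 0.08, limma adjusted p = 0.0276) and 0.24 higher after Cugbp1 siRNA (adjusted p = 0.106). Probe set 5181772 had a control mean of 6.93, below the filter, and was kept only through the siRNA arrays, where it read higher, so no support is taken from its call. It read 6.78, 7.05 and 6.96 in control, 7.276, 7.496 and 7.496 after Cugbp1 siRNA, and 7.65, 7.59 and 7.82 after Mbnl1 siRNA. Its use was 0.46 higher after Mbnl1 siRNA (SE 0.13, adjusted p = 0.0494) and 0.35 higher after Cugbp1 siRNA (adjusted p = 0.145). Neither probe set was called as different between the siRNAs (adjusted p = 0.864 and 0.901), and their Mbnl1 siRNA calls were lost in 8 (5187294) and 14 (5181772) of 18 alternatives. The count of 2 fell to 1 or 0 when any of 8 single arrays was left out, those without control replicate 3 or Mbnl1 siRNA replicate 2 or 3 giving 0.

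**Figure D4:**
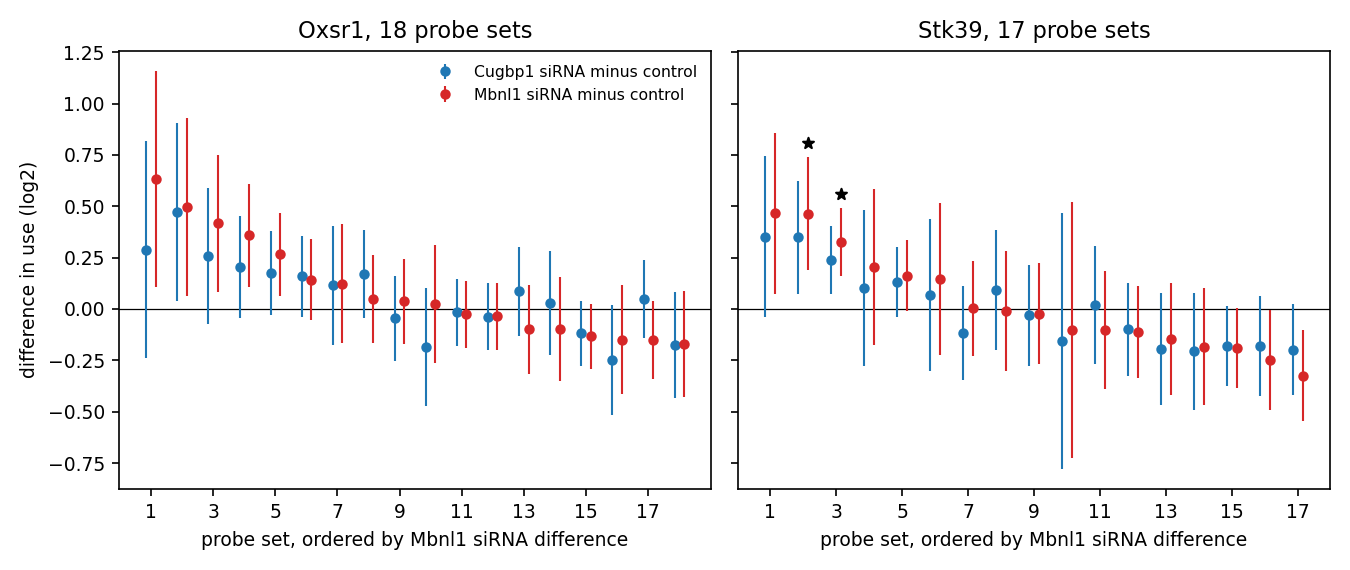
Difference in use from control (log2) of each kept probe set of Oxsr1 (left) and Stk39 (right), ordered by the difference after Mbnl1 siRNA (red), with Cugbp1 siRNA in blue. Bars are 95% intervals of the limma fit and stars mark an adjusted p under 0.05 after Mbnl1 siRNA. Oxsr1 has no star and Stk39 has 2, at 0.46 and 0.33.

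The genes around these kinases were taken from a list of 33, of which 27 could be tested. After Cugbp1 siRNA 9 of the 27 were called higher and 5 lower (51.9%, beside 38.7% of all genes), with a median difference of 0.06 beside 0.05 for all genes. The count of 14 fell to 8 without control replicate 3, where 28.2% of all genes were called. It fell to 9 without Cugbp1 siRNA replicate 3, where 27.2% of all genes were. After Mbnl1 siRNA 8 were higher and 3 lower (40.7%, beside 41.5%), with a median of 0.03 beside 0.04. Between the siRNAs 3 were higher after Cugbp1 than after Mbnl1 siRNA and 3 lower (22.2%, beside 9.34% of all genes, of which 4.27% were higher and 5.07% lower). This count of 6 fell to 3, beside 6.92% of all genes, with the replicate number as a block. It was also 3 without Cugbp1 siRNA replicate 2 (5.47% of all genes) or any 1 Mbnl1 siRNA array (4.97% to 5.23%). Where a pair of values follows a gene below, the first is after Cugbp1 siRNA and the second after Mbnl1 siRNA. The untested genes included Wnk4, for which no probe set carried its symbol alone, and Wnk3, Klhl3, Slc12a3 and Rell2, with under 3 probe sets above the filter.

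Wnk2, the other WNK kinase that could be measured, fell where Wnk1 read level or higher. Its gene value, over 22 kept probe sets out of 53, was 8.28, 8.23 and 8.32 in control, 8.042, 8.015 and 8.002 after Cugbp1 siRNA, and 7.98, 7.96 and 7.98 after Mbnl1 siRNA, with all siRNA arrays below all controls. Of all genes, 48.8% did not overlap in either direction between Cugbp1 siRNA and control, and 57.5% between Mbnl1 siRNA and control. Wnk2 fell by 0.26 after Cugbp1 siRNA (limma adjusted p = 0.00138) and by 0.30 after Mbnl1 siRNA (adjusted p = 0.000438). Of the MO25 scaffold genes, Cab39 differed by 0.13 and 0.14 and passed neither test (adjusted p = 0.114 and 0.0903). Cab39l, named here to complete the pair, fell by 0.20 after Cugbp1 siRNA (adjusted p = 0.0146). It was not called after Mbnl1 siRNA (-0.11, adjusted p = 0.109). Klhl2, the adaptor that presents WNK kinases to the Cullin-3 ubiquitin ligase, rose by 0.29 after Cugbp1 siRNA (adjusted p = 0.00874). It was not called after Mbnl1 siRNA (0.16, adjusted p = 0.0884) or between the siRNAs (0.13, adjusted p = 0.264). Cul3, the ligase's backbone, differed by 0.04 and 0.09 and was called in neither comparison (adjusted p = 0.648 and 0.263).

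Among the cotransporters that OSR1 and SPAK act on, Slc12a2, which encodes NKCC1, rose after both siRNAs. It read 8.18, 8.18 and 7.99 in control, 8.32, 8.47 and 8.45 after Cugbp1 siRNA, and 8.56, 8.64 and 8.55 after Mbnl1 siRNA, in 3 groups that did not overlap. Of all genes, 48.8% did not overlap between Cugbp1 siRNA and control, 57.5% between Mbnl1 siRNA and control and 29.5% between the siRNAs. The rise of Slc12a2 was 0.30 after Cugbp1 siRNA (SE 0.06, limma adjusted p = 0.00559) and 0.47 after Mbnl1 siRNA (SE 0.06, adjusted p = 0.00048), a 1.38-fold change. The difference between the siRNAs, -0.17, was not called (adjusted p = 0.137). Slc12a4 (KCC1), a potassium-chloride carrier that the pathway switches off, read 8.973, 8.996 and 8.951 in control, 9.05, 9.13 and 9.13 after Cugbp1 siRNA, and 8.94, 8.83 and 8.94 after Mbnl1 siRNA. The siRNA groups lay on opposite sides of the controls and differed by 0.20 (adjusted p = 0.0250), a call lost in 8 of 18 alternatives, among them leaving out Cugbp1 siRNA replicate 2 or 3 or any 1 Mbnl1 siRNA array (adjusted p up to 0.0954). The Cugbp1 siRNA rise of Slc12a4 was 0.13 (adjusted p = 0.0465), and its Mbnl1 siRNA difference of -0.07 was not called (adjusted p = 0.263). Slc12a7 (KCC4) rose by 0.15 after Cugbp1 siRNA (adjusted p = 0.0325) and differed by 0.03 after Mbnl1 siRNA (adjusted p = 0.701). The other potassium-chloride carrier tested, Slc12a5 (KCC2, the carrier of neurons), named here to complete the group, was lower after Cugbp1 siRNA (-0.18, adjusted p = 0.0331) and not called after Mbnl1 siRNA (-0.12, adjusted p = 0.131), on 9 kept probe sets out of 31. Slc12a1, the kidney carrier NKCC2, was lower after both siRNAs (-0.22 and -0.29, adjusted p = 0.0379 and 0.0109), on 3 kept probe sets out of 43. Of 7 tested markers of other cell types, 5 and 4 were also called lower after these siRNAs, and a shared source was not tested. The Cugbp1 siRNA calls of Slc12a4, Slc12a7, Slc12a5 and Slc12a1 were lost in 13, 9, 7 and 7 of 18 alternatives.

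Of the 5 tested kinases that act upstream of WNK1 or are activated by it, 1 rose after Cugbp1 siRNA and 2 after Mbnl1 siRNA, beside 26.0% and 26.9% of all genes. Sgk3, of the kinase family whose member SGK1 is activated by WNK1, read 7.60, 7.41 and 7.31 in control, 7.48, 7.72 and 7.70 after Cugbp1 siRNA, and 8.07, 8.05 and 8.02 after Mbnl1 siRNA. Only its Mbnl1 siRNA arrays stood clear of the controls, above all of them, as in 37.3% of all genes. The rise of Sgk3 was 0.61 (SE 0.08, limma adjusted p = 0.000406) beside 0.20 after Cugbp1 siRNA (adjusted p = 0.073), and the siRNAs differed by -0.41 (adjusted p = 0.0106). The Sgk3 value rested on 10 kept probe sets out of 33. Of these 10, 5 were called for use after Mbnl1 siRNA, beside 6.98% of all probe sets. Sgk1 rose after both, by 0.27 (adjusted p = 0.0032) and 0.40 (adjusted p = 0.000355).

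WNK1 also acts upstream of the MEKK2 and MEKK3 kinases of the ERK5 pathway. Map3k3 (MEKK3) read 8.989, 8.996 and 8.976 in control, 8.73, 8.82 and 8.93 after Cugbp1 siRNA, and 9.18, 9.19 and 9.16 after Mbnl1 siRNA. It fell by 0.16 after Cugbp1 siRNA (adjusted p = 0.0319), rose by 0.19 after Mbnl1 siRNA (adjusted p = 0.0145), and differed by -0.35 between them (limma adjusted p = 0.00257). Map3k2 (MEKK2) rose by 0.27 after Mbnl1 siRNA (adjusted p = 0.0211) and differed by -0.29 between the siRNAs (adjusted p = 0.0474). After Cugbp1 siRNA it stood at -0.02 (adjusted p = 0.857), a sign that turned with arrays centred on their median probe set (0.0037) or with the mean of probe sets (0.011). The Map3k3 call after Cugbp1 siRNA was lost in 10 of 18 alternatives, among them leaving out any 1 control array or Cugbp1 siRNA replicate 1 or 2 (adjusted p up to 0.0781). The Map3k2 call between the siRNAs was also lost in 10, among them leaving out control replicate 1, Cugbp1 siRNA replicate 1 or 2 or any 1 Mbnl1 siRNA array (adjusted p up to 0.159). That of Map3k2 after Mbnl1 siRNA was lost without control replicate 3 or Mbnl1 siRNA replicate 3 (adjusted p up to 0.0824). Map2k5 (MEK5) rose after both, by 0.33 and 0.27 (adjusted p = 0.00175 and 0.00337), while Mapk7, which encodes ERK5 itself, was called in neither (-0.04 and -0.08, adjusted p = 0.404 and 0.142).

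Relt, a receptor that binds SPAK and OSR1, read 7.87, 7.89 and 7.94 in control, 8.04, 7.92 and 8.09 after Cugbp1 siRNA, and 7.67, 7.58 and 7.69 after Mbnl1 siRNA. It fell by 0.25 after Mbnl1 siRNA (limma adjusted p = 0.00477), was not called after Cugbp1 siRNA (0.12, adjusted p = 0.112), and differed by 0.37 between the siRNAs (adjusted p = 0.0026). Among the phosphatases that remove the cotransporters' phosphates, Ppp3ca, a catalytic subunit of calcineurin, rose by 0.36 and 0.42 (adjusted p = 0.00188 and 0.000668).

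**Figure D5:**
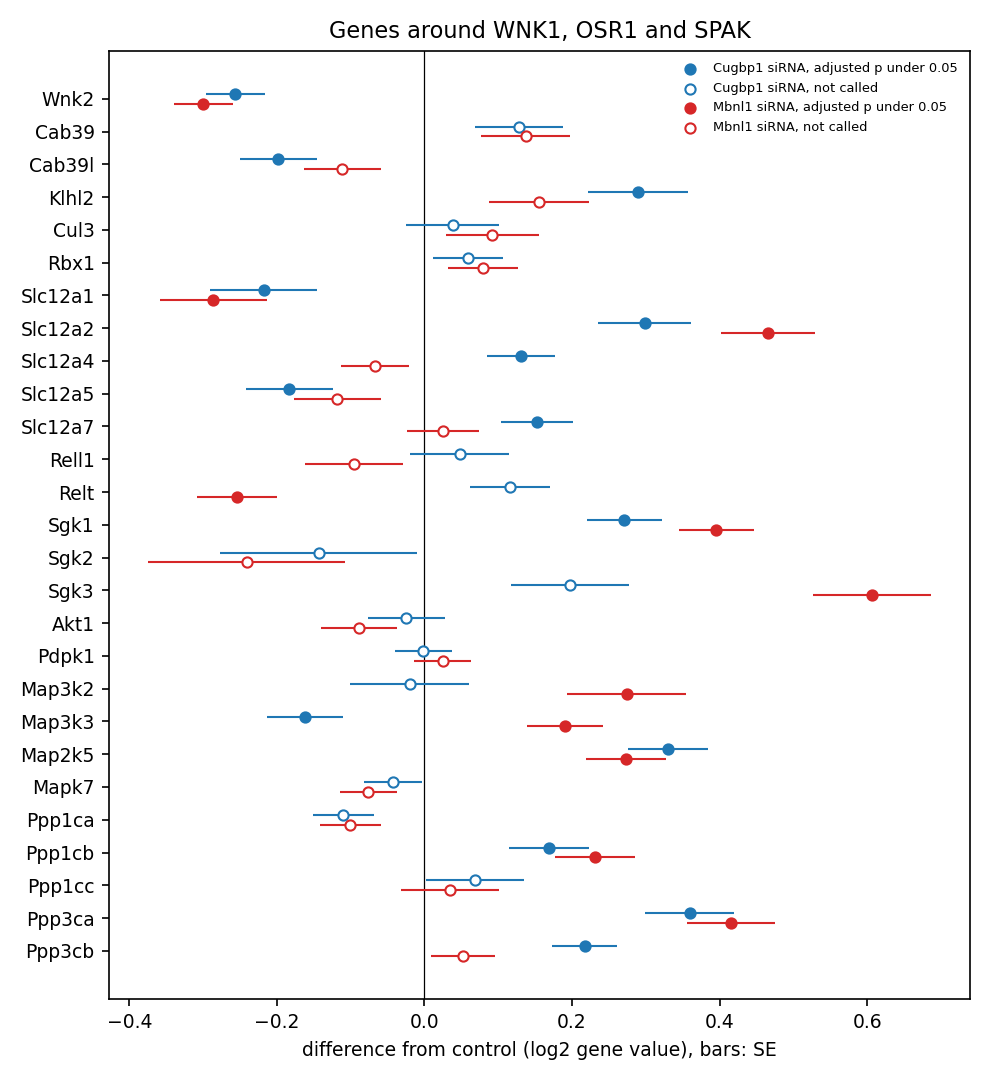
Difference in gene value from control (log2, bars are SE) of the 27 tested genes around WNK1, OSR1 and SPAK, with Cugbp1 siRNA in blue and Mbnl1 siRNA in red. Filled points have a limma adjusted p under 0.05 and open points do not. Sgk3 after Mbnl1 siRNA is farthest right, at 0.61, and Wnk2 after Mbnl1 siRNA farthest left, at -0.30.

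Exon use in the same list stood near the background. Of 468 probe sets in 25 genes of the list, 15 were called after Cugbp1 siRNA (3.21%, beside 3.75% of all probe sets) and 37 after Mbnl1 siRNA (7.91%, beside 6.98%). The pattern of the 4 Wnk1 probe sets, higher on all Mbnl1 siRNA arrays only, was met by 1 probe set each in Cab39, Cab39l, Cul3 and Slc12a2 (0.855% of the 468, beside 0.676% of all probe sets).

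Cell volume itself is held by channels and carriers beyond the WNK targets, and 13 of 17 listed genes could be tested. After Cugbp1 siRNA 7 of the 13 were called, all of them higher (53.8%, beside 38.7% of all genes called and 26.0% higher), and the list's median difference was 0.15 beside 0.05 for all genes. After Mbnl1 siRNA 5 were higher and 2 lower (53.8%, beside 41.5%), with a median of 0.09 beside 0.04. Clcn3, a chloride-proton exchanger of intracellular vesicles, rose by 0.43 and 0.45 after Cugbp1 and Mbnl1 siRNA (limma adjusted p = 0.000578 and 0.000253). Of the volume-regulated anion channel genes, Lrrc8b rose by 0.32 and 0.26 and Lrrc8c by 0.35 and 0.42, all called, and Lrrc8d rose by 0.27 after Cugbp1 siRNA only (adjusted p = 0.0037), at 0.02 after Mbnl1 siRNA and with a called difference of 0.25 between them (adjusted p = 0.0154), which was lost in 5 of 18 alternatives. Lrrc8e, of the same channel family and named here to complete it, went the other way after Mbnl1 siRNA (-0.25, adjusted p = 0.0172), stood at 0.031 after Cugbp1 siRNA (adjusted p = 0.741) and differed by 0.28 between the siRNAs (adjusted p = 0.0333), on 4 kept probe sets. Its Mbnl1 siRNA call was lost in 4 and its call between the siRNAs in 6 of 18 alternatives, and the sign after Cugbp1 siRNA turned in 3. Atp1b1, the beta subunit of the sodium pump, rose by 0.15 and 0.30 (adjusted p = 0.0439 and 0.00177). The Cugbp1 siRNA call of Atp1b1 was lost in 13 of 18 alternatives, among them leaving out control replicate 1 or 3, Cugbp1 siRNA replicate 1 or 2 or any 1 Mbnl1 siRNA array (adjusted p up to 0.153).

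Between the siRNAs 5 of the 13 tested cell volume genes were called, all higher after Cugbp1 siRNA (38.5%). Of all genes, 9.34% were called in this comparison and 4.27% were higher. With single arrays left out the count of 5 fell to between 1 and 4, beside 4.97% to 9.15% of all genes. Of the 3 tested osmolyte carriers in that list, 2 differed between the siRNAs. Slc5a3, which imports myo-inositol, read 10.25, 10.36 and 10.34 in control, 10.61, 10.58 and 10.64 after Cugbp1 siRNA, and 10.08, 10.23 and 10.22 after Mbnl1 siRNA, so the groups lay on opposite sides of the controls. Of all genes, 48.8% did not overlap between Cugbp1 siRNA and control, and 57.5% between Mbnl1 siRNA and control. Slc5a3 rose by 0.30 after Cugbp1 siRNA (limma adjusted p = 0.00254), was not called after Mbnl1 siRNA (-0.14, adjusted p = 0.0574), and differed by 0.43 between them (adjusted p = 0.000866). Slc6a6, the taurine carrier, rose after both, by 0.32 and 0.14 (adjusted p = 0.000578 and 0.0173), and by more after Cugbp1 siRNA (difference 0.17, adjusted p = 0.0242), though this last call was lost in 7 of 18 alternatives, among them leaving out Cugbp1 siRNA replicate 2 or 3 or any 1 Mbnl1 siRNA array (adjusted p up to 0.0955). Slc6a12, the betaine carrier, was called in no comparison (-0.13 and -0.20 against control, adjusted p = 0.187 and 0.0574, and 0.068 between the siRNAs, adjusted p = 0.648).

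Across the 9 arrays, which share their 3 groups, the gene values most like those of Wnk1 were those of Nbeal1 (Pearson r = 0.994), Ifi203 (0.986) and 4932438A13Rik (0.985). For Oxsr1 they were Plaa (0.975), Parpbp (0.968) and Ibtk (0.967), and for Stk39 Pdk3 (0.990), Cdk8 (0.984) and Lpin3 (0.984). Among 9770 probe sets of other genes whose use differed by at least 0.5 between Mbnl1 siRNA and control, the closest to the mean use of the 7 raised Wnk1 probe sets were 1 each of Zfp106 (r = 0.976), Fn1 (0.972), Rb1 (0.971), Spaca6 (0.969) and Nhsl1 (0.967). Against the 4 raised after Mbnl1 siRNA only, a set formed after its values were seen, the closest were 1 each of Synj2 (0.979), Mbnl1 (0.975), Nasp (0.972), Ttc26 (0.969) and Cacna1a (0.967). The Mbnl1 probe set belongs to the siRNA's own target, whose gene value fell on the same arrays, so its use is set against a lowered gene value. In both comparisons of use, the probe sets on each side were chosen by the same contrast. High r values therefore follow in large part from the choice, and no support is taken from them.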

How the data were processed

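The authors deposited linear intensity values of 1195555 probe sets on 9 arrays, made with RMA in Affymetrix Expression Console on genome build mm9, per the submitters' processing notes (versions not given in the sources used here). RMA includes a normalisation between arrays, which can remove a shift shared by most genes. The deposited values were still not level between groups. The median probe set intensity was 43.6 to 43.8 on the control arrays and 42.3 to 42.9 on the siRNA arrays. The median gene differed from control by 0.054 (log2) after Cugbp1 siRNA and by 0.041 after Mbnl1 siRNA. Values were log2-transformed. Groups came from the sample titles.

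Symbols came from the platform annotation, updated through RefSeq synonyms: 316997 probe sets had 1 symbol, 6571 several and 871987 none listed. Probe sets with a mean log2 value of at least 6.997 (298889) were kept. A gene value was the Tukey median polish of at least 3 kept probe sets (12646 genes). Gene values were tested with limma 3.58.1 in R 4.3.3, with 1 mean per group over all 9 arrays, eBayes and Benjamini-Hochberg adjustment over all genes, called at 0.05. Use was the probe set minus its gene value, in genes with at least 4 kept probe sets (158713 probe sets of 11374 genes), tested likewise with a mean-variance trend. Both steps were tested on simulated data.

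The members, gene lists and rules were chosen with earlier results of these data known. Named genes were the members, list genes called with a difference of at least 0.25, some list genes named in any case where tested (Slc12a2, Slc12a4, Slc12a7, Cab39, Wnk4, Cul3, Map3k2, Map3k3 and Mapk7), the siRNA targets and the closest genes by correlation; 1 list gene is not reported here. Named Wnk1 probe sets were those raised by at least 0.5, the 2 next below and the 2 lowest. Alternatives covered scaling, filters, gene summary, variance model, exon-use test, replicate block and single arrays left out. Replicate arrays correlated at 0.967 to 0.976 and no 2 were duplicates. No pairing by replicate number was used in the main fit. Deviations of same-numbered arrays from their group means correlated at -0.10 to 0.12, which cannot show whether the arrays were paired.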

Additional observations from a re-analysis of the deposited data

How the results depend on the processing

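Alternatives named as centred on the median gene, and those for Wnk1 exon use that left the gene value unsubtracted, formed it without the raised probe sets or subtracted the median Wnk1 probe set, were added after seeing the data. Calls of Stk39 after Mbnl1 siRNA, and all comparisons of Oxsr1 between the siRNAs, kept their direction and side of the threshold in all 18 alternatives. Oxsr1 after Cugbp1 siRNA was called with arrays centred on the median probe set (0.15, limma adjusted p = 0.0295) and with the mean of probe sets (0.17, 0.0323), and ranged from 0.083 to 0.14 with single arrays left out. After Mbnl1 siRNA Oxsr1 turned to -0.027 with arrays centred on the median gene. Stk39 after Cugbp1 siRNA missed the threshold with quantile normalisation repeated (0.11), no filter (0.14), the filter at the median (0.15), the 2 groups alone (0.14) and centring on the median gene (0.063), and ranged from 0.11 to 0.18 with single arrays left out. Stk39 between the siRNAs passed with the mean of probe sets (-0.17, adjusted p = 0.0431). The Wnk1 difference after Cugbp1 siRNA was 0.022 with arrays centred on the median probe set, 0.049 with the mean of probe sets and -0.10 centred on the median gene, and -0.058 to 0.015 with single arrays left out. After Mbnl1 siRNA that of Wnk1 was 0.27 with the mean of probe sets, 0.078 centred on the median gene and 0.13 without the raised probe sets. The number of raised Wnk1 probe sets was 7 to 10 in all alternatives.

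In the WNK list, 9 genes were called after Cugbp1 siRNA with no filter, beside 20.4% of all genes. With single arrays left out 8 to 14 were called, against 14 in the main fit. After Mbnl1 siRNA 17 were called with arrays centred on the median gene, beside 42.7% of all genes, against 11 in the main fit. Between the siRNAs 2 were called with no filter (3.19% of all genes), 3 with the 2 groups alone (6.79%) and 3 with the replicate block (6.92%). With single arrays left out that count was 3 to 5, against 6 in the main fit. The replicate block gave Stk39 1 probe set called for use after Mbnl1 siRNA. That count was also 1 with arrays centred on the median probe set, with the 2 groups alone and without the variance trend, and 0 with no filter, with the filter at the median and by diffSplice (0 to 2 with single arrays left out), and after Cugbp1 siRNA it was 0 to 1 with single arrays left out. Oxsr1 had 2 probe sets called after Mbnl1 siRNA by diffSplice, beside 10.8% of all probe sets, and 0 to 1 with single arrays left out. Signs turned without a call for Slc12a7 after Mbnl1 siRNA (-0.0066 with quantile normalisation repeated, -0.0027 with the mean of probe sets, -0.050 centred on the median gene), Lrrc8d after Mbnl1 siRNA (-0.0040 with quantile normalisation, -0.028 with the filter at the median, -0.053 centred on the median gene), Map3k2 after Cugbp1 siRNA (0.0037 centred on the median probe set, 0.011 with the mean), Cul3 after Cugbp1 siRNA (-0.043 centred on the median gene), Cab39l after Mbnl1 siRNA (0.016 with the mean) and Lrrc8e after Cugbp1 siRNA (-0.010 with the filter at the median, -0.050 centred on the median gene). With single arrays left out Slc12a7 ranged from -0.021 to 0.051, Lrrc8d from -0.017 to 0.047, Map3k2 from -0.084 to 0.058, Lrrc8e from -0.014 to 0.086 and Cul3 from -0.0022 to 0.12. Over all genes the split of higher and lower calls moved with scaling, from 3293 and 1600 after Cugbp1 siRNA and 3397 and 1848 after Mbnl1 siRNA to 4398 and 1230, and 4232 and 1433, with arrays centred on the median probe set, and to 2600 and 1831, and 2795 and 2282, with quantile normalisation repeated. With arrays centred on the median gene it turned, to 1679 and 2839, and 2201 and 3200. diffSplice called 17155 probe sets after Mbnl1 siRNA, beside 11072. The cause of these changes was not tested. Kept probe sets near the filter have the lowest signal, and the 3 Wnk1 probe sets raised after both siRNAs had control means on either side of it.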
